A study of Mus musculus with 2 samples.

Results

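Ccl8 Folr2 macrophages were defined here as tumour macrophages that carried transcripts of both Ccl8, a chemokine of the monocyte chemoattractant family, and Folr2, the folate receptor found on macrophages. Cells were first kept if they had at least 300 genes, at least 500 UMIs (unique molecular identifiers, each standing for one captured transcript) and at most 20% mitochondrial UMIs. Members were then selected on measured values: C1qa, C1qb and C1qc together at 0.2% of the cell's UMIs or more, Ccl8 at 0.1% or more, at least 2 Folr2 UMIs, fewer than 4 Retnla UMIs, Hmox1 below 0.2% and 0 UMIs of Cd3d, Cd3e and Cd3g. These rules took 928 of 20602 kept cells. Because the members were picked by these counts, their levels of the genes in the rule are descriptions and support nothing by themselves.

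The cells came from fibrosarcomas, malignant tumours of connective tissue, that had been implanted under the skin of wild-type C57BL/6 mice of the same strain. The study's question was how erythrocytes placed in a tumour bear on its cells: tumours received the mouse's own erythrocytes in buffered saline, or saline alone, and each group gave 1 droplet library read at the transcript's 3' end. The library titled Control carries the treatment label Erythrocyte injected and the library titled Blood carries PBS injected, so titles and treatments contradict each other. Libraries are therefore called by title, and no direction below says what erythrocytes do. The sources used here give neither the mice's age nor the number of animals per library. With 1 library per group there was no test, no p-value and no check of spread between replicates, and every difference describes these 2 libraries. Intervals are exact 95% intervals that cover counting error only.

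The kept cells of both libraries held nearly the same number of UMIs, 114386525 in Control and 114377581 in Blood. The member cells summed to 6595014 and 10301937 UMIs, with a median of 17250.5 UMIs and 4112.5 genes per cell in Control and 17500 UMIs and 4077 genes in Blood. Other cells that met the C1q and Cd3 rules, called other C1q macrophages below, numbered 4402 and 4303, with medians of 14282 and 13019 UMIs. The libraries shared 349 barcode sequences out of 9475 and 12057. Of the members 16 in Control and 9 in Blood had such a barcode, and 3 of these barcodes were members in both libraries. Gene counts without the shared barcodes are given beside the main ones.

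Resident macrophages of many tissues are marked by Folr2, Mrc1 and Lyve1, sit near vessels and nerves, and take up proteins and dead cells. Macrophages that arrive from blood monocytes carry Ccr2, the receptor for Ccl2, Ccl7 and Ccl12, and often high MHC class II. The ligand Ccl8 binds Ccr8 in mice, a receptor on regulatory and Th2-type T cells, and is made by macrophages of skin and tumours.

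The label was checked against its 5 markers. Fcrls, an Fc receptor-like scavenger receptor also known from microglia, was at 586 CPM (UMI counts summed over the cells of a class and scaled to a common total) in Control members and 265 CPM in other C1q macrophages, and at 579.7 against 219 CPM in Blood. Pf4, a platelet-type chemokine that macrophages also make, was at 2469.6 against 1615 CPM in Control and 4243 against 2734 CPM in Blood. Mrc1, the mannose receptor, was at 922 against 485 CPM and 1043 against 623 CPM. These 3 markers stand outside the rule and were higher in members of both libraries, so the data do not go against the label. The general macrophage genes were present as well. Csf1r, the receptor for CSF1, was at 625 and 661 CPM, Adgre1, which encodes F4/80, at 414 and 438 CPM, and Mertk, a receptor for dying cells, at 68.2 and 73.1 CPM.

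Members made up 358 of 8985 kept cells in Control, or 3.98% (Clopper-Pearson interval 3.59 to 4.41), and 570 of 11617 in Blood, or 4.91% (4.52 to 5.32). Among C1q macrophages alone they were 7.52% of 4760 (6.79 to 8.31) and 11.7% of 4873 (10.8 to 12.6). The Blood share was 1.23 times the Control share over kept cells (1.08 to 1.41) and 1.56 times over C1q macrophages (1.36 to 1.78). The size of the ratio depended on this denominator, because C1q macrophages were 53.0% of kept cells in Control and 41.9% in Blood.

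The libraries had similar numbers of C1q macrophages, 4760 and 4873, and within these the counts parted at the Ccl8 step of the rule. Ccl8 at the limit or above was found in 590 C1q macrophages of Control and 1019 of Blood. Asking also for Folr2 left 399 and 621, the Retnla limit 380 and 617, and the Hmox1 limit 358 and 570. Folr2 with less Ccl8 was the commoner state in both libraries, with 921 and 852 cells, while 176 and 338 cells had the Ccl8 but under 2 Folr2 UMIs. Among members the median Ccl8 level was 0.254% of a cell's UMIs in Control (quartiles 0.163 and 0.584) and 0.343% in Blood (0.191 and 0.716), and the highest cells reached 5.03% and 8.91%. The median Folr2 count was 6 UMIs in Control (quartiles 3 and 11) and 5 in Blood (3 and 7).

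**Figure D1:**
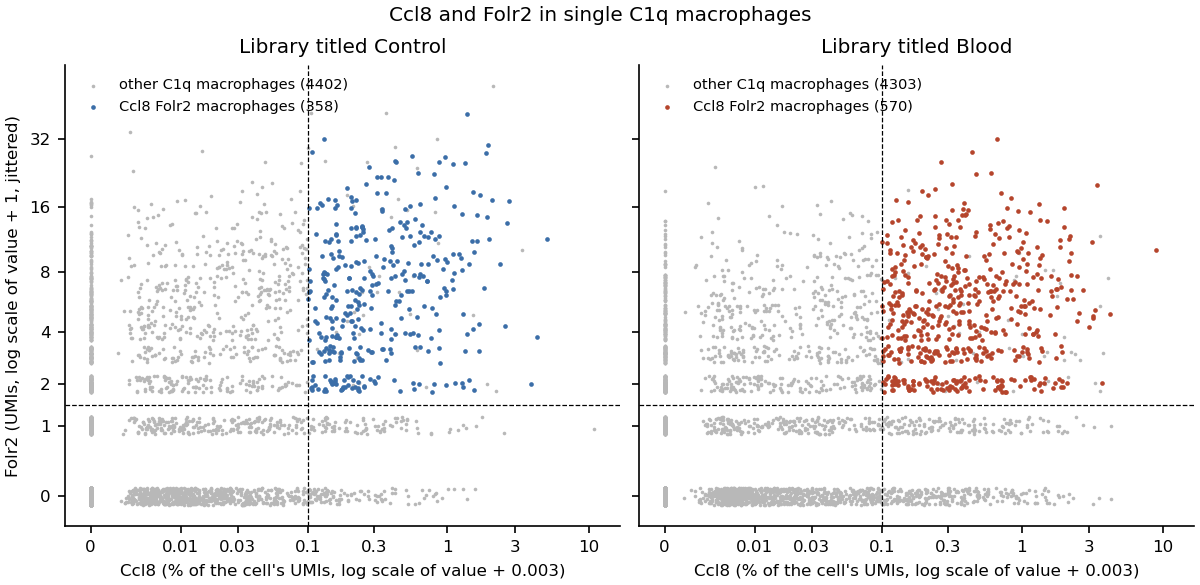
Ccl8 as a percent of a cell's UMIs (horizontal) against Folr2 UMIs (vertical) for each C1q macrophage, one panel per library, with members coloured and the rule's limits as dashed lines. Cells spread without a gap across both limits, and 358 Control and 570 Blood cells lie in the upper right region and pass the remaining rules.

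Cells just inside and just outside the limits had levels of the same order. Members with Ccl8 from 0.1% to 0.125% (26 and 52 cells) had summed Gas6 at 147 and 118 CPM, and cells just outside, from 0.075% to 0.1% (45 and 59 cells), had 195 and 151 CPM. Gas6 encodes a bridge between dying cells and the receptors Axl and Mertk. Members with exactly 2 Folr2 UMIs (57 and 111 cells) had Cbr2, a carbonyl reductase of resident macrophages, at 88.7 and 113 CPM, and cells with exactly 1 (74 and 129 cells) had 103 and 109.6 CPM. Members with 3 or more Folr2 UMIs (301 and 459 cells) had 295 and 163 CPM. H2-Ab1, a chain of MHC class II, was at 2649 and 1256 CPM in members with exactly 2 Folr2 UMIs and at 3940 and 1938 CPM in cells with 1. At the Ccl8 limit it was higher inside, at 1468 and 1788 CPM, than just outside, at 1325 and 846 CPM. Ccr2 was at 48.4 and 116 CPM just inside that limit and at 110 and 92.0 CPM just outside, so its direction differed between the libraries. The limits cut a range of levels rather than a gap between cells.

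Ccl8 lies on chromosome 11 at 82115185 to 82116799 (GRCm38, plus strand), the last of a run of monocyte chemoattractant genes on the same strand: Ccl2 at 82035571 to 82037453, Ccl7 at 82045712 to 82047525, Ccl11 at 82057823 to 82062955 and Ccl12 at 82101845 to 82103400. Folr2 lies on chromosome 7 at 101839988 to 101857194 (minus strand), beside its relative Folr1 at 101858331 to 101870788. The promoter windows of Ccl8 and of its neighbour Ccl12 are shown because they are neighbours of 1 family, Ccl8 being a gene of the rule, and that of Folr2 because it is the other gene of the rule. Each runs from 250 bases before to 50 after the annotated start and comes from RefSeq (GRCm38.p6), 5′ to 3′ on the gene's strand, with matched motif letters in capitals. The windows are chr11:82114935-82115234 (plus), chr11:82101595-82101894 (plus) and chr7:101845282-101845581 (minus).
Ccl8: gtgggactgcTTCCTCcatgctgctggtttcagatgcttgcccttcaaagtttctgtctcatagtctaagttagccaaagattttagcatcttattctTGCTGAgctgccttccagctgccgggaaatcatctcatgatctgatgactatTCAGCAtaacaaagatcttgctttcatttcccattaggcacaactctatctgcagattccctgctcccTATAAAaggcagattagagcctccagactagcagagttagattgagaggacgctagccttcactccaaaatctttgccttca
Ccl12: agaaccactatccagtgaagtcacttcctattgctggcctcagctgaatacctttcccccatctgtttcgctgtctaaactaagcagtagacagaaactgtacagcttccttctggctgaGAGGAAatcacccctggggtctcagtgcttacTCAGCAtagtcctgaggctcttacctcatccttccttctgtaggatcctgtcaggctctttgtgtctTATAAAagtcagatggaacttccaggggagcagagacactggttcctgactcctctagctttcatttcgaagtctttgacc
Folr2: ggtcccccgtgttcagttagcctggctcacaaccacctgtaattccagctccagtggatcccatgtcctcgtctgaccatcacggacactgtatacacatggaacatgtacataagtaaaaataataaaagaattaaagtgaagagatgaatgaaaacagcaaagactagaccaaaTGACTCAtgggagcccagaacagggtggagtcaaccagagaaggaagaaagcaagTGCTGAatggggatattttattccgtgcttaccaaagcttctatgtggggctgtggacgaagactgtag
The letters searched on both strands were the core promoter box TATAAA, the PU.1 box GAGGAA, the AP-1 site TGANTCA and the MAF half-site TGCTGA. In Ccl8 the TATA letters began 32 bases before the start, the PU.1 letters at -240 on the opposite strand, and the MAF letters at -152 and, on the opposite strand, at -100. Ccl12 held the same 3 kinds, with TATA letters at -31, PU.1 letters at -130 and MAF letters at -98 on the opposite strand. The Folr2 window held TGACTCA at -74 and TGCTGA at -19, and a window at its other annotated start, chr7:101857141-101857440, held only TGCTGA at -220. Such matches are common: of all 32851 windows, 13.6% held the TATA letters, 28.3% the PU.1 letters, 7.81% the AP-1 letters and 19.5% the MAF letters. The window of Gas6, chr8:13494486-13494785 (minus), held 0 matches although Gas6 was higher in members. Matches describe the letters only.

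Within each library, members were set against the other C1q macrophages. Of 7757 genes with at least 10 CPM and 10 counts, 147 were at least 1.5-fold higher in members in both libraries (1.9%) and 91 at least 1.5-fold lower in both (1.17%), and the median over all these genes was 0.02 on the log2 scale (ratio of CPM plus 5). Without the shared barcodes they were 150 and 88, and with the cells called doublets left out 148 and 86. The genes of the rule were left out of these counts. The members were chosen from these very cells, so the values below describe what travelled with Ccl8 and Folr2 and test nothing.

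Genes of resident macrophages were the group most often higher. Of 18 measured, 13 were at least 1.5-fold higher in both libraries and 0 lower, with a median of 1.02. Cbr2 was at 271 CPM in members and 46.4 CPM in other C1q macrophages of Control, and at 156 and 34.1 CPM in Blood. Gas6 was at 254 against 63.1 CPM in Control and 199 against 58.5 CPM in Blood. Fcna, a ficolin that recognises sugars, was at 164 against 34.0 and 89.8 against 25.7 CPM. Cd163, the receptor for haemoglobin bound to haptoglobin, was low but higher in members, at 37.9 against 5.17 and 23.8 against 6.26 CPM. Stab1, a scavenger receptor, was at 871 against 440.1 and 872 against 464 CPM. Selenop, a secreted selenium carrier, was at 1107 against 486 and 934 against 453 CPM, and Igf1, a growth factor, at 43.8 against 12.3 and 50.2 against 13.9 CPM. Maf, a transcription factor of macrophage identity, was higher by 0.83 and 0.65 on the log2 scale. Timd4, which marks long-lived resident macrophages of several tissues, was nearly absent, at 0.303 CPM in Control members and 0 in Blood, where 0 counts allow up to 0.291 CPM.

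Several of the genes with the highest ratios belong to no such list. Npl, an enzyme that breaks down sialic acid, was the highest by the smaller of its library ratios, at 157 against 24.8 CPM in Control and 109 against 15.997 CPM in Blood (log2 2.44 and 2.44). Wfdc17, a small secreted protein of activated macrophages, was at 1003 against 240.3 and 747 against 223 CPM. Vcam1, an adhesion molecule that binds integrins of leukocytes, was at 385 against 124 and 399 against 102 CPM. The elastase family gene Cela1 was higher by 1.65 and 1.67 on the log2 scale, and Serpinb6a, which encodes a protease inhibitor, by 1.56 and 1.53. Timp2, which inhibits matrix metalloproteinases, was higher by 1.47 and 1.32, and the gelatinase gene Mmp9 by 1.33 and 1.22. Ch25h, which makes 25-hydroxycholesterol, was higher by 1.41 and 1.29. Fcgrt, the receptor that recycles IgG and albumin, was higher by 1.46 and 1.28, and Nrp1, a co-receptor of VEGF and semaphorins, by 1.22 and 1.19.

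**Figure D2:**
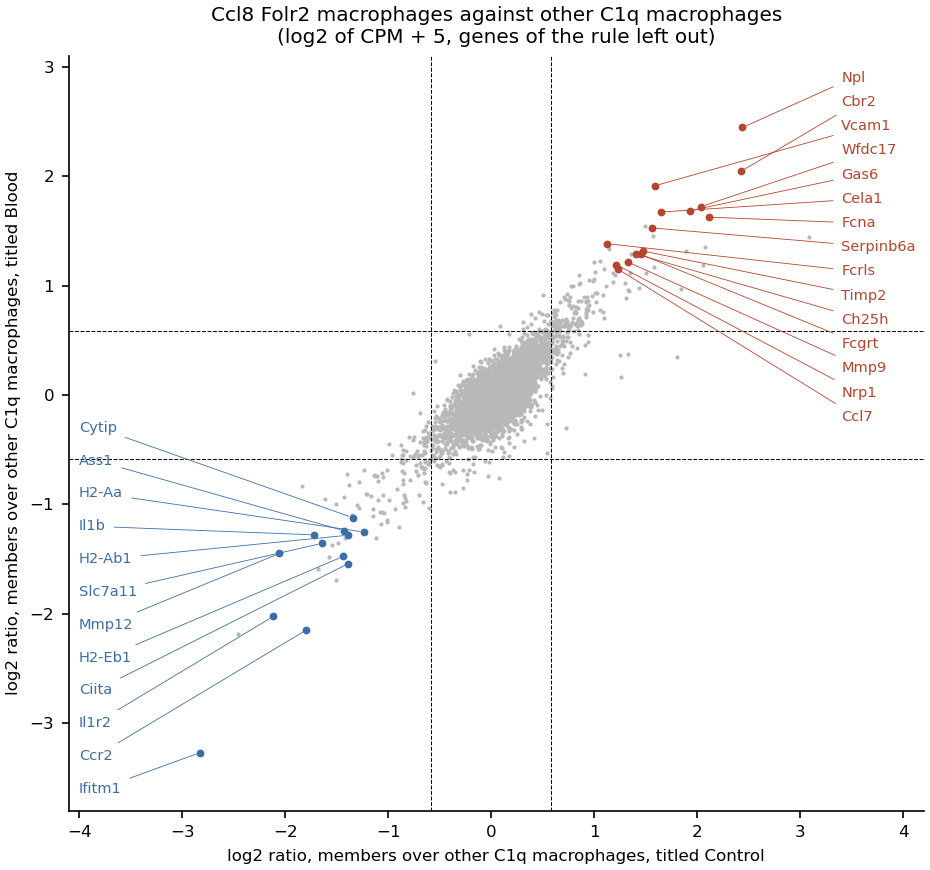
Log2 ratio of CPM plus 5 in members over other C1q macrophages, Control (horizontal) against Blood (vertical), one point per measured gene outside the rule, with dashed lines at 1.5-fold and the genes highest and lowest by the naming rule labelled. Npl lies at 2.44 and 2.44, and Ifitm1 at -2.82 and -3.27.

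Monocyte and antigen presentation genes were lower. Of 12 MHC class II presentation genes 7 were at least 1.5-fold lower in both libraries and 0 higher (median -0.91), and of 12 monocyte genes 6 were lower and 0 higher (median -0.72). H2-Ab1 was at 1476 CPM in Control members against 3886 CPM in other C1q macrophages, and at 1196 against 2916 CPM in Blood. Cd74, the invariant chain, was at 4172 against 10156 and 3837 against 7878 CPM, and Ciita, the switch that turns class II genes on, at 22.0 against 65.5 and 15.2 against 53.9 CPM. The log2 ratios were -1.23 and -1.25 for H2-Aa, -1.44 and -1.48 for H2-Eb1, and -1.30 and -1.01 for H2-DMb1, part of the peptide loader. The co-stimulatory gene Cd80 was the remaining one of the 7. The protease gene Ctss of the same list was not lower, at 3318 against 3040.3 CPM in Control and 3817 against 2819 CPM in Blood. Ccr2 was at 90.7 against 326 CPM in Control and 65.1 against 306 CPM in Blood. Ifitm1, an interferon-induced membrane protein, had the lowest ratios of the named genes, at 41.1 against 321 and 34.0 against 370.2 CPM. Il1b, the inflammatory cytokine, was at 269 against 896 and 325 against 796 CPM, and its decoy receptor Il1r2 at 8.64 against 54.1 and 10.2 against 56.8 CPM. Of 13 inflammatory cytokine genes 4 were lower and 0 higher (median -0.09): Il1b, the prostaglandin synthase gene Ptgs2 (log2 -1.07 and -1.18), Nos2 and Clec4e. Mmp12, macrophage elastase, the cystine transporter gene Slc7a11, the citrulline-using enzyme gene Ass1 and Cytip, which encodes a cytohesin-binding protein, completed the lowest 12, at -2.06 and -1.45, -1.64 and -1.36, -1.43 and -1.24, and -1.34 and -1.12 in Control and Blood.

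The chemokine ligands divided. Of 16 measured outside the rule, 4 were at least 1.5-fold higher in both libraries, 2 lower, and the median was -0.00. Ccl7, which draws monocytes through Ccr2, was at 927 against 392 CPM in Control and 766 against 342 CPM in Blood. Its neighbours Ccl2 and Ccl12 were at 1092 against 593 and 1029 against 573 CPM in Control, and at 826 against 529.6 and 875 against 479.8 CPM in Blood. Pf4 was the remaining one of the 4. The neutrophil attractants Cxcl2 and Cxcl3 were the lower ones, with Cxcl2 at 427 against 899 and 646 against 1058 CPM. Ccl11, which lies inside the same chromosome 11 run, had only 0.455 and 0.0971 CPM in members. Ccl6 was higher in Control (1107 against 588 CPM) and less so in Blood (585 against 511 CPM). Of 6 receptors measured, 0 were higher and 1, Ccr2, was lower.

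Some uptake and lysosome genes were higher. Of 16 uptake and scavenger receptor genes 4 were higher and 0 lower (median 0.43), and of 19 lipid-associated genes 4 were higher and 1 lower (median 0.28). The first 4 were Gas6, Stab1, Mrc1 and Cd163. Among the lipid-associated genes Fabp5, a fatty acid carrier, was at 923 against 484 CPM in Control and 1260.3 against 765 CPM in Blood. Ctsb, a lysosomal protease, was at 3732 against 1942 CPM in Control and 3682 against 2022 CPM in Blood, and Ctsd, another, at 1779.7 against 819.6 and 1829 against 913 CPM. Abca1, which exports cholesterol, was at 229.6 against 125 and 299 against 190.0 CPM. Apoe, the lipid carrier, was at 17260.3 against 11949 and 18095 against 10886 CPM and passed 1.5-fold only in Blood. The tetraspanin gene Cd9 was the lower one, at 82.6 against 152 and 106 against 177 CPM. Axl, a Gas6 receptor, did not share the direction of its ligand, at 160.4 against 226 and 158 against 213 CPM.

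Among 15 growth factor and angiogenesis genes 6 were higher and 1 lower (median 0.44). Grn, progranulin, was at 1985 against 1205 CPM in Control and 1969.5 against 1255 CPM in Blood. Gdf15, a stress-induced cytokine, was at 41.4 against 11.4 and 21.2 against 7.08 CPM, and Pdgfc, a growth factor for mesenchymal cells, at 21.7 against 5.48 and 19.4 against 6.26 CPM. Gas6, Igf1 and Nrp1, given above, were the other 3. Vegfa, the main endothelial growth factor, was lower, at 59.7 against 126 and 83.9 against 138 CPM. Of 25 transcription factor genes 4 were higher and 0 lower (median 0.03): Maf, Nr1h3 and Rxra, which encode the liver X receptor alpha and its partner, and Bhlhe41.

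Folate genes other than Folr2 did not pass. Of 11 measured, 0 were past 1.5-fold in either direction in both libraries (median -0.16), the relative Folr1 had 0.152 and 0.0971 CPM in members, and Slc46a1, the proton-coupled folate transporter, 6.67 and 8.06 CPM. Of 25 interferon-stimulated genes only Bst2, which tethers viruses to the membrane, was higher (median -0.03). Of 28 cell cycle genes and 20 immediate early and heat shock genes 0 passed in either direction, with medians of -0.01 and -0.14. Of 10 complement genes outside the rule C4b was higher and the integrin gene Itgax, which encodes CD11c, lower (median 0.25). Of 8 microglia-type genes only the purine receptor gene P2ry12 was higher and 0 were lower (median 0.52).

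Shares of cells had the same direction after each cell of at least 5000 UMIs was thinned to 5000, which kept 342 Control and 544 Blood members and 3828 and 3498 other C1q macrophages. Gas6 was then detected in 57.6% of Control members and 17.7% of other cells, and in 54.2% and 17.8% in Blood. Vcam1 was detected in 64.9% against 26.6%, and in 58.3% against 22.3%. Before thinning, Gas6 was found in 79.9% and 81.2% of members and Vcam1 in 79.1% and 74.9%. As a measure of free RNA, T cells with at least 2 Cd3 UMIs and C1q under 0.2% (1188 and 1567 cells, median 5297 and 5033 UMIs) had Gas6 in 0.758% and 1.15% and Vcam1 in 2.69% and 2.04%. Ccl8 itself was found in 8.50% and 11.4% of these T cells, so single Ccl8 UMIs were widespread, and Folr2 in 1.68% and 1.34%. Ccr2 went the other way after thinning, in 19.9% of Control members against 59.7% of other cells and 16.5% against 53.7% in Blood. H2-Ab1 had a median of 1.5 UMIs against 14 in Control and 1 against 8 in Blood. It was also found in 44.0% and 31.8% of the T cells, at 368 and 240 CPM summed over them. The part of free RNA in the H2-Ab1 UMIs of members was not tested.

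Markers of other cells were low in members, though not absent. The summed T cell list was at 29.1 and 16.1 CPM in members and 18.4 and 19.0 CPM in other C1q macrophages, with the Cd3 genes at 0 by the rule. The B cell list was at 40.6 and 20.9 CPM (45.8 and 26.3 in the others), with Ms4a1 at 0, and the NK cell list at 16.1 and 17.1 CPM (35.9 and 35.0). The neutrophil list was at 148 and 283 CPM (86.8 and 268), with Ly6g at 0 and counts for 8 of its 10 genes in each library. That list holds Mmp9, one of the genes named above, whose own value was 109.9 and 155 CPM. Dendritic cell markers summed to 124 and 139 CPM (201 and 186) and mesenchymal markers to 95.4 and 61.1 CPM (125 and 79.2). Endothelial markers were at 53.8 and 70.4 CPM (56.6 and 68.1), mast cell markers at 6.97 and 5.73 CPM (7.26 and 12.9) and platelet markers at 17.4 and 43.5 CPM (18.4 and 41.6), with Gp9, Gp1bb, Gp1ba, Gp6 and Tubb1 at 0. Microglia-type genes summed to 1539 and 1619.5 CPM (1217 and 1173), with Sall1, which defines microglia, at 0. Scrublet called 2 Control and 6 Blood members as doublets, which is 0.559% and 1.05%. In other C1q macrophages the shares were 0.545% and 1.67%, and in all kept cells 1.75% and 2.59%. The part of free RNA and doublets in the differences was not tested.

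The genes that followed Ccl8 cell by cell were listed over all C1q macrophages of at least 5000 UMIs, 4170 in Control and 4042 in Blood, among 5321 genes. The highest mean Spearman correlations were those of Ctsb (0.44), Folr2 (0.39), Timp2 (0.38), Selenop (0.37), Wfdc17 (0.37), Grn (0.36), Gas6 (0.36), Ctsd (0.35), Vcam1 (0.34) and Lgmn (0.33), a lysosomal protease gene. The lowest were those of Ccr2 (-0.32), Cd74 (-0.28), S100a11 (-0.26), H2-Eb1 (-0.25) and H2-Ab1 (-0.25). Cells of a library share its free RNA and handling, and the correlations are given as descriptions. Inside the members alone Ccl8 still ran with Wfdc17 (0.37 in Control and 0.35 in Blood) and Ctsb (0.36 and 0.28). Timp2, Selenop, Grn, Gas6, Ctsd and Lgmn lay between 0.14 and 0.30. Vcam1 had only 0.003 and 0.11, and Ccr2 -0.03 and -0.06. Cd74, H2-Eb1 and H2-Ab1 lay between -0.06 and -0.05 in Control and between -0.21 and -0.19 in Blood. With Folr2 the values were 0.29 and 0.19, and with Ccl7 0.23 and 0.08. With Ccl12, the nearest gene on the chromosome, they were 0.06 and 0.01, near 0.

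Members were then set beside C1q macrophages chosen by Retnla or by Hmox1. The Retnla set had at least 4 Retnla UMIs (59 and 13 cells). The Hmox1-high set had Hmox1 at 0.2% of UMIs or more and under 4 Retnla UMIs (176 and 255 cells). Neither set was asked for Ccl8 or Folr2. Of cells that met all other limits of the rule, the Retnla limit turned away 19 and 2, and the Hmox1 limit 22 and 47. The Retnla set in Blood had only 103826 UMIs in all. Against the Retnla set, 404 of 7757 genes were at least 1.5-fold higher in members in both libraries (5.21%) and 367 lower (4.73%). Against the Hmox1-high set the counts were 256 of 7745 higher (3.31%) and 234 lower (3.02%). Both sets carried Ccl8 and Folr2 too. Ccl8 was at 4431 and 5206 CPM in members, 2456 and 7493 CPM in the Retnla set and 647 and 3166 CPM in the Hmox1-high set. Folr2 was at 433 and 329, 466 and 356, and 196 and 169 CPM in the same order.

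Several resident genes were higher in the Retnla set than in members. Of 18 such genes 6 were lower in members and 1, Stab1, higher (median -0.69, where the median of all genes was 0.09). Gas6 was at 404 and 771 CPM there against 254 and 199 CPM in members, and Cd163 at 146 and 116 CPM against 37.9 and 23.8. Of 12 monocyte genes 9 were lower in members and 0 higher (median -1.50), and of 12 MHC class II genes 7 were lower and 0 higher (median -1.09). H2-Ab1 was at 3543 and 4498 CPM in the Retnla set, and Ccr2 at 482 and 828 CPM. Members were higher in Vcam1 (385 and 399 CPM against 83.6 and 116), Stab1 (871 and 872 against 329 and 385) and Ccl12 (1029 and 875 against 292 and 144). Of 8 microglia-type genes 7 were higher in members (median 1.42). Immediate early and heat shock genes, which also respond to tissue digestion, were lower in members for 13 of 21 and higher for 0 (median -0.84), and lymphocyte markers were also higher in the Retnla set. In Control, NK cell markers summed to 132 CPM there and 16.1 CPM in members, T cell markers to 83.6 and 29.1 CPM, and B cell markers to 118 and 40.6 CPM. In Blood the Retnla set had only 2, 3 and 15 counts of these lists. The part of both in the other differences was not tested.

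Hmox1-high cells were set against members in the same way. They had fewer UMIs per cell, with a median of 14213 in Control and 6210 in Blood, against 17250.5 and 17500 in members. Hypoxia and glycolysis genes were lower in members for 16 of 25 with 0 higher (median -0.74, where all genes had 0.11), and lipid-associated genes for 12 of 20 with 1 higher (median -0.74). Cell cycle genes were higher in members for 22 of 28 (median 1.33). Mmp12 was at 1311 and 1718 CPM in Hmox1-high cells against 48.7 and 158 CPM in members, and Arg1, arginase, at 3195 and 4028 against 1080.4 and 1933 CPM. Slc40a1, the iron exporter, was at 290.0 and 254 CPM there and 19.6 and 22.7 CPM in members. Mki67, a proliferation marker, was at 165 and 115 CPM in members and 56.0 and 24.9 CPM in Hmox1-high cells. Of 22 iron and haem genes 1 was higher in members, Tfrc, the transferrin receptor, and 7 lower (median -0.16). Of 18 resident genes Fcrls and Fcna were higher in members, and Pf4 was lower. The libraries did not have the same sign for this list, with a median of 0.38 in Control and -0.20 in Blood. Markers of other cells moved with this set: platelet markers summed to 133 and 414 CPM in it, with 17.4 and 43.5 CPM in members, neutrophil markers to 251 and 573 CPM, with 148 and 283 CPM, and mesenchymal markers to 326 and 47.4 CPM, with 95.4 and 61.1 CPM. Their part in the values, that of Pf4 included, was not tested.

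Members of the Blood library were then compared with members of the Control library. Of 7966 measured genes 46 were at least 1.5-fold higher in Blood (0.577%) and 163 lower (2.05%), with a median over all genes of -0.02. Without the shared barcodes 49 were higher and 133 lower, 43 and 122 of them the same genes. With the sub-clusters of members, described below, at the same weight in both libraries, 41 were higher and 78 lower, 35 and 70 of them the same genes. In other C1q macrophages 33 of 7788 genes were higher (0.424%) and 60 lower (0.77%), with a median of 0.01, and their values stand beside those of members. Ccl8, used by the rule, was at 4431 CPM in Control members and 5206 CPM in Blood members, and Folr2 at 433 and 329 CPM. Fcrls, at 586 and 579.7 CPM, hardly differed. A lower level in such sums can come from fewer cells with a gene or from less RNA in each, which the shares of cells below address only in part.

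Interferon-stimulated genes were the list with the most genes lower in Blood members: 22 of 26 were at least 1.5-fold lower and 0 higher, with a median of -0.96. In other C1q macrophages 18 of 27 were lower (median -0.76). Isg15, a ubiquitin-like antiviral protein, was at 247 CPM in Control and 91.5 CPM in Blood members, Rsad2, which encodes viperin, at 173 and 60.3 CPM, and Ifit3, an RNA-binding antiviral protein, at 100.2 and 29.6 CPM. For Ifit3 the ratio of Blood to Control was 0.295 (0.257 to 0.339). Irf7, the amplifier of interferon genes, was at 239 and 94.4 CPM, and the chemokine Cxcl10 at 579 and 322 CPM. Isg15 was detected in 39.2% of Control and 20.8% of Blood members after thinning. Ifit1 and Ifit2, of the same family as Ifit3, had log2 values of -1.43 and -1.31, Ly6a, the interferon-responsive Sca-1 antigen, -1.42, and Ms4a4c -1.39. With the sub-clusters at the same weight the median of the list came to -0.41, and Rsad2, Ifit1 and Ifit2 to -0.40, -0.48 and -0.35. Isg15 and Ifit3 came to -0.66 and -0.65.

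Cell cycle genes were lower for 12 of 28 in Blood members and higher for 0 (median -0.56), against 0 of 28 in other C1q macrophages (median -0.21). Top2a, the topoisomerase of dividing cells, was at 208 and 127 CPM, and Mki67 was detected in 26.6% of Control and 20.8% of Blood members after thinning. Resident genes were lower for 7 of 20 and higher for 1, Pf4 (median -0.31), against 0 and 1 of 16 in other C1q macrophages (median 0.02). Lyve1, the hyaluronan receptor of perivascular macrophages, was at 36.5 CPM in Control and 0.971 CPM in Blood members, Fcna at 164 and 89.8 CPM and Cbr2 at 271 and 156 CPM. The others of the 7 were Clec10a, Cd209f, Ltc4s and Pmp22. Without sub-cluster 5, described below, the median of the resident list was -0.20, and with the sub-clusters at the same weight that of the cell cycle list was -0.31. Whether members and other cells differ in these counts was not tested.

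Among genes of at least 50 CPM in either library, the 3 lowest in Blood members were Tmem176b, Tmem176a and C4b, outside the interferon list. Tmem176b and Tmem176a, overlapping genes for a pair of membrane proteins on chromosome 6 (48833818 to 48841496, minus strand, and 48840919 to 48847071, plus strand, GRCm38), were lower together. Tmem176b was at 123 CPM in Control and 22.6 CPM in Blood members (Blood over Control 0.184, interval 0.158 to 0.213), and Tmem176a at 64.3 and 13.3 CPM. The genes overlap, so their counts may not be fully separate. Tmem176b was detected in 32.5% of Control and 8.82% of Blood members after thinning, and its log2 value in other C1q macrophages was -1.57. C4b, a complement component, was at 56.6 and 14.3 CPM (log2 -1.68, and -0.80 in other C1q macrophages). Further genes outside that list had ratios in the range of the interferon genes. Saa3, an acute phase protein, was at 68.8 and 22.6 CPM, with a log2 value of -1.42 in members and 0.22 in the others. For members it was -2.05 without sub-cluster 5 and -0.68 with the sub-clusters at the same weight. Few cells carried Saa3 in sub-cluster 5: 187 UMIs lay in 6 Control cells and 167 in 8 Blood cells. Of these UMIs 32.6% and 32.3% were in a single cell. The reticulocalbin gene Rcn3 had log2 values of -1.30 and -0.43. Klf2, a quiescence factor, was the only 1 of 25 transcription factor genes past 1.5-fold, at 666 and 358 CPM.

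Some matrix and arginine genes were higher in Blood members. Of 18 matrix genes 4 were higher, Mmp12, Mmp13, Fn1 and the protease gene Ctsk, and 1, Sparc, was lower (median 0.34), and in other C1q macrophages 5 of 17 were higher (median 0.26). Mmp12 was at 48.7 CPM in Control and 158 CPM in Blood members (Blood over Control 3.25, interval 2.88 to 3.67). Mmp13, a collagenase, was at 56.3 and 126 CPM, and Fn1, fibronectin, at 334 and 626 CPM. Of 15 arginine and alternative activation genes 4 were higher, Arg1, Slc7a2, Chil3 and Pdcd1lg2, and 1, Clec10a, was lower (median 0.08). Arg1 was at 1080.4 and 1933 CPM (Blood over Control 1.79, interval 1.74 to 1.84), and Slc7a2, the transporter that brings arginine into macrophages, at 50.2 and 126 CPM. Pdgfa, a growth factor for mesenchymal cells, was at 54.3 and 107 CPM and Spp1, osteopontin, at 160.0 and 268 CPM. The oxidoreductase gene Ero1l had a log2 value of 0.85, the aminopeptidase gene Anpep 0.80, Pf4 0.78, Pxdc1 0.71 and the arrestin-like gene Arrdc4 0.63. Pxdc1 and Arrdc4 came under 1.5-fold with the sub-clusters at the same weight, at 0.55 and 0.55.

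Most of these genes had the same sign in other C1q macrophages. Mmp12 was at a log2 value of 0.995 there, Slc7a2 at 0.98, Arg1 at 0.77 and Pf4 at 0.76. MHC class II genes, which set members apart within a library, did not separate the libraries: 0 of 12 passed 1.5-fold in either direction in members (median -0.14) or in other C1q macrophages (median -0.26). Of 23 iron and haem genes 0 were higher and 1, Cp, ceruloplasmin, was lower, at 27.1 and 7.18 CPM. The ferritin chains Fth1 and Ftl1 were at 10420.0 and 12079.7 CPM and 7307 and 6893 CPM. Chemokine ligands were higher for 4 of 19, namely Cxcl2, Cxcl3, Pf4 and Ppbp, and lower for 3, namely Ccl4, Ccl6 and Cxcl10 (median 0.13), with Cxcl3 at 3.49 and 44.7 CPM (log2 2.55) and Ppbp, a platelet chemokine, at 2.73 and 21.5 CPM (log2 1.77). Both log2 values are above that of Mmp12, and both genes stay under the 50 CPM that the rule for the highest genes asks for. Beside them, neutrophil markers summed to 148 and 283 CPM and platelet markers to 17.4 and 43.5 CPM in members. Ly6g and Gp9 were at 0, but 8 of 10 neutrophil and 5 of 10 platelet markers had counts in each library. The part of these markers' cells in the values was not tested.

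**Figure D3:**
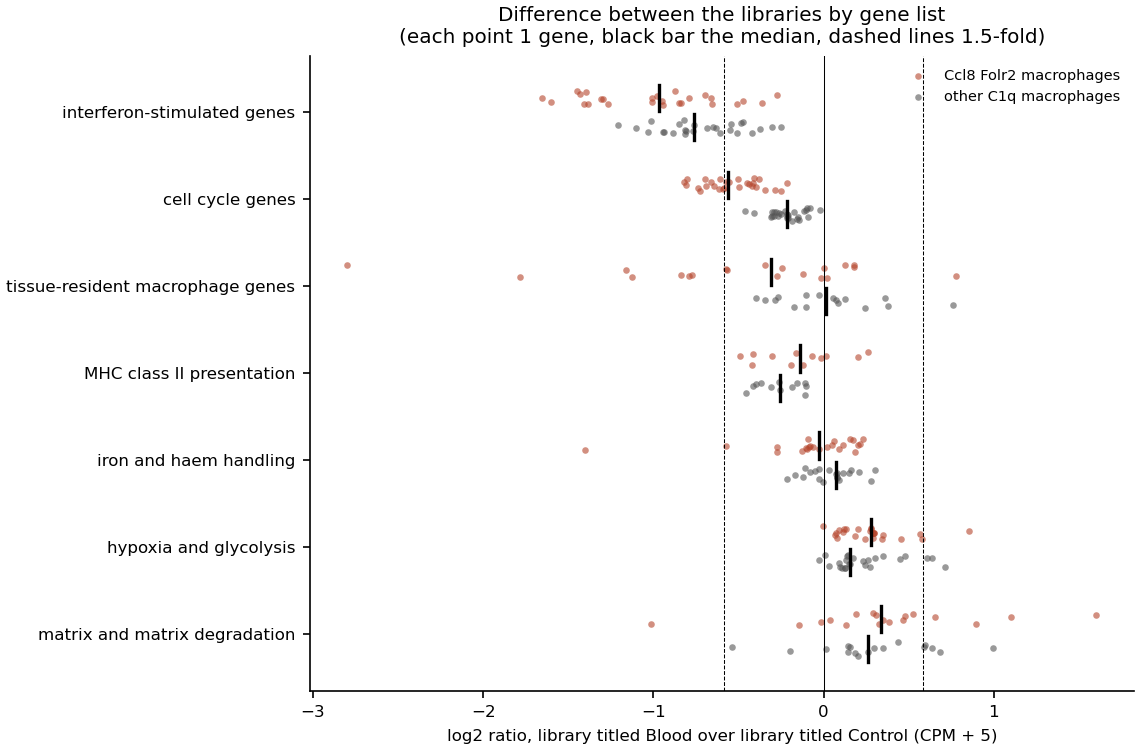
Log2 ratio of CPM plus 5, Blood over Control, for each measured gene of 7 lists, in members and in other C1q macrophages, with black bars at each list's median. Interferon-stimulated genes have medians of -0.96 in members and -0.76 in the others, and MHC class II genes -0.14 and -0.26.

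The members were not of one kind. Clustered again with the genes of the rule left out, they gave 5 sub-clusters, which are called by number and whose leading genes only describe them. Sub-cluster 1 (Mmp12, Vegfa, Sgk1) held 31.8% of Control and 47.4% of Blood members, and sub-cluster 2 (Mki67, Top2a, Nusap1) 21.5% and 16.8%. Sub-cluster 3 (Sparc, Rcn3, S100a6) held 15.1% and 20.9%, and sub-cluster 4 (Rsad2, Ifit3, Cmpk2) 19.6% and 7.37%. The neutrophil genes S100a9 and S100a8 were also among the leading genes of sub-cluster 4, at 151 and 159 CPM there over both libraries. The libraries were unlike in this: 7 of 7 measured neutrophil markers were at least 1.5-fold higher in its 42 Blood cells than in its 70 Control cells. Their median was 2.78, where 7.20% of all measured genes were higher in sub-cluster 4. The part of neutrophil RNA in its other values was not tested. Sub-cluster 5 (Ednrb, Lyve1, Cd209f) held 43 cells in each library, 12.01% and 7.54%, with fewer UMIs per cell than the rest, a median of 7739 and 6397. The libraries differed in the very genes that led the sub-clusters, so the sizes are given as descriptions only.

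Differences between libraries were also read within sub-clusters. Tmem176b was lower in Blood in all 5, with log2 values of -2.09, -2.38, -1.62, -2.38 and -2.32 in sub-clusters 1 to 5. C4b was also lower in all 5, between -2.24 and -1.01. Its value of -1.01 in sub-cluster 5 rests on 41 UMIs in 4 Blood cells, with 87.8% of them in a single cell. Mmp12 was at 1.30, 0.91, 1.84, 0.45 and 2.75. Of all measured genes 1.96% were lower in Blood in sub-cluster 1, 2.42% in sub-cluster 2, 5.75% in sub-cluster 3, 6.67% in sub-cluster 4 and 18.3% in sub-cluster 5, shares that grow as the sums of UMIs shrink. Against these, interferon genes were lower for 15 of 26 in sub-cluster 1, 21 of 26 in sub-cluster 2, 8 of 23 in sub-cluster 3, 3 of 27 in sub-cluster 4 and 3 of 26 in sub-cluster 5. Ifit3 was at -1.75, -2.12, -0.34, -0.23 and 0.19. Cell cycle genes were lower for 4 of 17 in sub-cluster 1 (median -0.25), 1 of 28 in sub-cluster 2, the one led by Mki67 (-0.26), 14 of 24 in sub-cluster 3 (-0.62), 3 of 20 in sub-cluster 4 (-0.17) and 6 of 12 in sub-cluster 5 (-0.58).

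Sub-cluster 5 had the highest levels of Ccl8 and Gas6. Its Ccl8 level was 13172 CPM over both libraries, where the other sub-clusters had 3565 to 4951 CPM, and its Gas6 level 894 CPM, where they had 133 to 237 CPM. Not every resident gene was higher there. Stab1 was at 593 CPM in its Control cells and 689 CPM in its Blood cells, where sub-clusters 1 to 4 had 888 and 877 CPM, and Timd4 and Vsig4 were at 0. Fcrls and Vcam1 were also lower, at 93.6 and 72.3 CPM in sub-cluster 5, where the others had 499.7 to 834 and 335 to 464 CPM. Fcrls and Vcam1 were higher in members as a whole, yet low in the sub-cluster with the most Ccl8. Ccr2, lower in members as a whole, was higher there, at 285 CPM in Control and 196 CPM in Blood. In sub-clusters 1 to 4 Ccr2 was at 78.4 and 61.1 CPM. Where the other members had 91.2 CPM of the immediate early gene Egr1, sub-cluster 5 had 1332 CPM. Ednrb, the endothelin B receptor, was at 476 CPM in its Control cells and 273 CPM in its Blood cells, and Clec10a, a lectin, at 738 and 372 CPM. Of 22 resident genes 12 were lower in its Blood cells and 2 higher (median -0.67), where 18.3% of all genes were lower and 12.5% higher. Cd163 was at 288 and 295 CPM and Cbr2 at 952 and 1071 CPM. Of 24 hypoxia and glycolysis genes 19 were higher in its Blood cells and 0 lower (median 0.94), against medians of 0.11 to 0.35 in the other sub-clusters.

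The sub-cluster's cells of the 2 libraries were unlike in other genes, which were chosen after their values were seen. Lyve1 had 199 UMIs in 31 of 43 Control cells, 506 CPM, with 22.6% of them in a single cell. It had 0 in the 43 Blood cells. The exact intervals were 438 to 582 CPM in Control and 0 to 11.8 CPM in Blood. The Control level was 52.6 times the 9.62 CPM that 3 counts would give in Blood, a ratio without an interval. Ppbp was at 0 in Control (interval 0 to 9.39 CPM). It had 119 UMIs in 15 of 43 Blood cells, 382 CPM (316 to 457), with 19.3% of them in a single cell. The Blood level was 49.98 times what 3 counts would give in Control. Pf4, which like Ppbp is abundant in platelets, was at 3158 and 13379 CPM and was found in 42 of 43 cells of each library, while Itga2b, a platelet integrin, had 0 counts and 1 count. Cd209f, a lectin, was at 209 and 9.62 CPM (3 counts in 1 cell), and Fcna at 254 and 19.2 CPM. H2-Ab1 was at 2649 CPM in 39 of 43 Control cells and 692 CPM in 26 of 43 Blood cells, beside the T cell shares given above, and 8 of 10 MHC class II genes were lower in Blood (median -1.46), although 18.3% of all genes were lower in sub-cluster 5. Arg1 was at 173 and 952 CPM and Fabp5 at 224 and 2369 CPM. The sums rest on 392995 and 311913 UMIs. Outside sub-cluster 5, Lyve1 was at 6.77 and 1.001 CPM and Pf4 at 2426 and 3958 CPM.

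**Figure D4:**
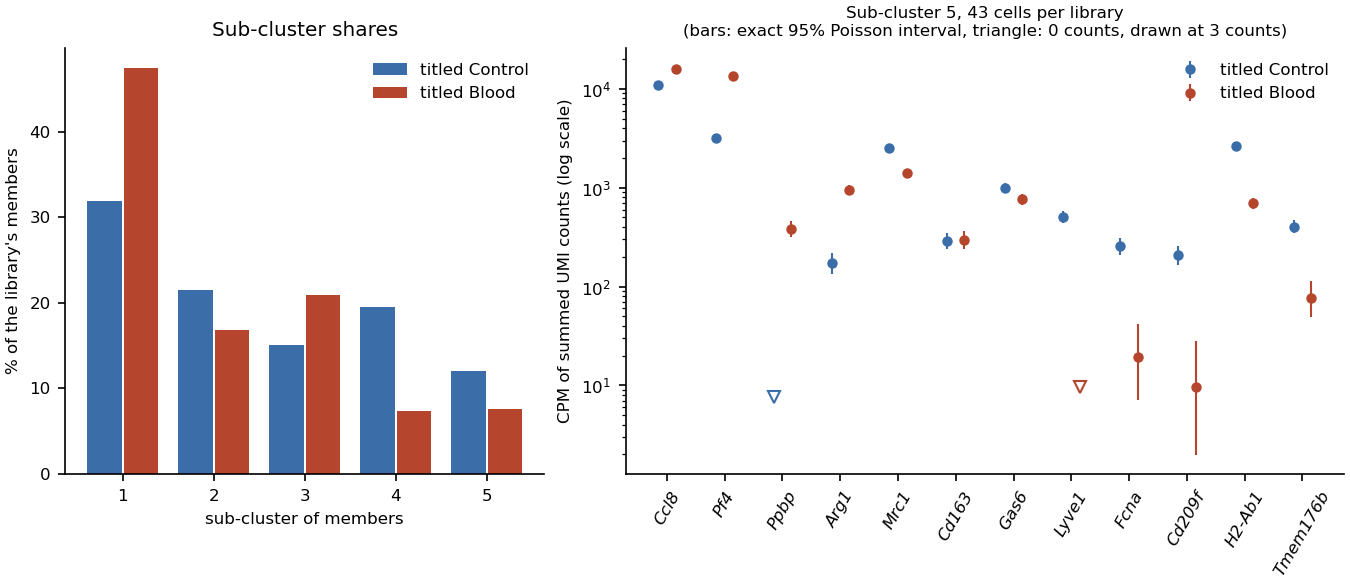
Left, the percent of members in each of 5 sub-clusters in Control and Blood. Right, CPM of 12 genes in the 43 Control and 43 Blood cells of sub-cluster 5, with Lyve1 at 506 CPM in Control and 0 in Blood and Ppbp at 0 in Control and 382 CPM in Blood.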

How the data were processed

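Tumours were minced, digested for 45 minutes at 37 °C, filtered and freed of erythrocytes by lysis before 3' v3 droplet libraries were made, per the labels' protocols. The authors deposited unnormalised UMI counts for each gene in each barcode. The submitters' processing notes name Cell Ranger 3.1.0 and the build mm10. For the annotation release and the barcode calling, the sources used here say nothing. Coordinates come from GENCODE M21 (GRCm38), which held 30934 of 31053 gene identifiers, and promoter windows from RefSeq (GRCm38.p6), found for 6 of 8 genes looked up.

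Counts were summed over the cells of each class and library and given as CPM. Log2 ratios used CPM plus 5 over genes with at least 10 CPM in either group and 10 counts, and a gene was counted when past 1.5-fold. Intervals were exact Poisson (CPM), Clopper-Pearson (shares) and conditional binomial (ratios) at 95%. Cells were thinned to 5000 UMIs for shares and correlations. Scrublet calls (scanpy 1.11.5, expected rate 0.8% per 1000 barcodes) were kept and left out as an alternative. Members were clustered with Leiden (leidenalg 0.10.2, python-igraph 0.11.9) at resolution 0.5 on 1500 variable genes, 20 components and 15 neighbours. Other calculations used scipy 1.17.1 and numpy 2.4.6. The count steps were tested on simulated data.

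Named genes were the 15 highest and 12 lowest of members over other C1q macrophages by the smaller ratio, and the 12 highest and 12 lowest of Blood over Control, with at least 50 CPM and 100 counts, leaving out Xist, Y-linked, globin, antigen receptor, ribosomal protein and mitochondrial genes and predicted models, plus up to 6 per gene list. Members and lists were chosen with earlier results of these data known. Alternatives changed the limits of the rule, pseudocount, floor, scaling, weighting of cells, doublets and depth. Those without shared barcodes, without sub-cluster 5 and with sub-clusters at the same weight were chosen after seeing the data.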

Additional observations from a re-analysis of the deposited data

How the results depend on the processing

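No paired analysis was possible because each group had 1 library, and for the same reason no library could be left out. The genes named by their ratios kept their sign at every setting. So did the list medians past 1.5-fold, which were 36 of 228 values in members over other C1q macrophages and 13 of 247 in Blood over Control. Smaller medians were not checked for a change of sign, and gene counts have no sign to reverse. The Retnla, Hmox1-high, correlation and sub-cluster values had no alternatives. The share of kept cells in Control and Blood was 5.33% and 6.07% with Ccl8 at 0.05%, 2.63% and 3.57% at 0.2%, 3.44% and 3.92% with Folr2 at 0.02% of UMIs, 4.44% and 5.35% without the Retnla and Hmox1 limits, and 3.13% and 4.35% in cells thinned to 5000 UMIs. It was 3.52% in Control without sub-cluster 5. The ratio of Blood to Control kept its side of 1, between 1.14 and 1.39. Genes higher and lower in Blood members numbered 80 and 258 with a pseudocount of 1 CPM, 18 and 68 with 20 CPM, and 148 and 306 in thinned cells. The lower genes were 263 with Folr2 at 0.02% and 78 with the sub-clusters at the same weight. Against other C1q macrophages 71 genes were higher and 46 lower with a pseudocount of 20 CPM. Beyond what these settings themselves change (a pseudocount draws low genes to 0, thinning leaves fewer counts), the cause was not tested. The genes named in members over other C1q macrophages gave 54 ratios, with each library counted on its own. Of the 648 values of these ratios over the settings, 0 came under 1.5-fold. Of 312 values of the 24 genes named in Blood over Control, 9 came under 1.5-fold. These were 4 of Arrdc4, 2 of Pxdc1 and 1 each of Rsad2, Ifit1 and Ifit2. The depth behind members limits CPM at 0 counts to 0.455 in Control and 0.291 in Blood.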
